A study of Mus musculus with 6 samples.

Results

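The transcripts described here are those of 10 genes of the ATP-binding cassette (ABC) transporter family, measured in mouse brain with and without *Abcc1*. They are *Abcc3*, *Abcb6*, *Abca7*, *Abca5*, *Abca6*, *Abca8a*, *Abca8b*, *Abca9*, *Abca12* and *Abca13*. All probe sets whose single annotated symbol, or its current synonym, was one of these names were taken, which gave 410 probe sets, from 19 for *Abcb6* to 64 for *Abca13*. They stand among 5017 genes and 58919 probe sets tested. The knockout group is 3 arrays of total brain RNA labelled APPPS1-FVBxABCC1, and the control group is 3 arrays labelled APPPS1-FVB. Both groups thus carry the APPPS1 transgenes, mutant human APP and presenilin, which are driven by a neuronal *Thy1* promoter and lead to amyloid plaques, on the inbred FVB background. No array without these transgenes was analysed here. Age, sex and the number of animals behind an array are not in the labels, so p-values speak of the spread between these arrays alone, which may be technical. *Abcc1* itself was not analysed here, so its loss was not checked against the labels.

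ABC transporters use ATP to move substrates across membranes, and most are exporters. *Abcc1* belongs to subfamily C, many but not all of whose members export glutathione, glucuronide and sulphate conjugates. In brain it lies at the choroid plexus and in glial and vascular cells. Members of subfamily A move lipids such as phospholipids, cholesterol and ceramides. Export substrates overlap within the family, so the loss of a transporter raises the question whether others become more abundant. The comparison asks this for the members that were measured.

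No member passed the test for a difference. At a limma adjusted p below 0.05, 0 of the 10 gene means rose and 0 fell in the knockout, where 0% of all 5017 genes rose and 0% fell. At an unadjusted p below 0.05, 0 of 10 members passed, against 14.1% of all genes. The gene mean is the average log2 signal over all probe sets of a gene on an array. Knockout values were higher for 5 members and lower for 5, with log2 differences from -0.09 for *Abcb6* to 0.17 for *Abca8a* and a median of 0.008. Over all genes the median was -0.004, and the 10th and 90th percentiles were -0.13 and 0.13. In 0 of 10 members did the 3 knockout values lie wholly above or below the 3 control values, which happened in 20.2% of all genes. Exact two-sided permutation p-values of the gene means ran from 0.3 to 1.0, and 3 arrays against 3 cannot give less than 0.1. Limma's adjusted p-values ran from 0.436 to 0.981.

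The intervals bound how large a change these arrays leave room for. The 95% confidence intervals of the 10 fold changes, taken gene by gene, reached at most 1.30-fold upward (*Abca8a*) and at least 0.81-fold downward (*Abcc3*). These bounds hold for the average over all probe sets of a gene. Many probe sets were dim, and an average over dim probe sets understates a change in the transcript.

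**Figure D1:**
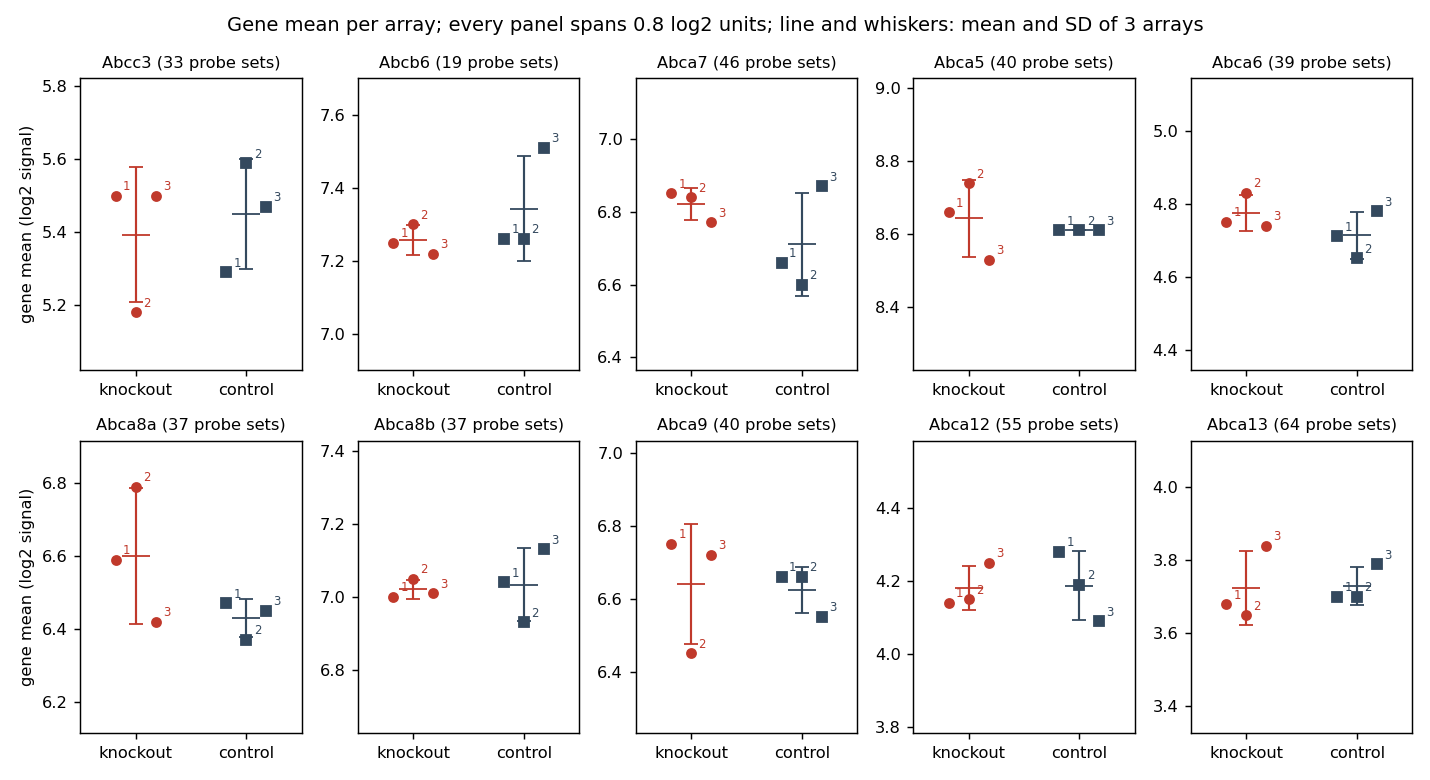
Gene mean in log2 signal for each member on every array, knockout left and control right, with array numbers beside the points and the mean and SD of 3 arrays as line and whiskers. In all 10 panels the points of the groups overlap, and knockout 2 is the highest array for *Abca5*, *Abca6* and *Abca8a* and the lowest for *Abcc3*, *Abca9* and *Abca13*.

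*Abcc3* is the member closest to *Abcc1* in function, an exporter of glucuronide conjugates and bile salts known from liver and intestine. Its gene mean was 5.50, 5.18 and 5.50 in knockout arrays 1, 2 and 3, against 5.29, 5.59 and 5.47 in control arrays 1, 2 and 3. Knockout 2 was the lowest array and control 2 the highest, and the other 4 lay between them. Knockout minus control was -0.05 on the log2 scale (SE 0.11), a fold of 0.963 with a 95% interval of 0.81 to 1.14 (adjusted p = 0.851 by limma). It was 0.05 without knockout 2 and 0.01 without control 2, so its sign rests on single arrays. Of its 33 probe sets 15 were higher and 18 lower in the knockout, and 18 of the 33 fell among the dimmest 1 in 3 of all tested probe sets, below a mean signal of 5.82. Its brightest probe set, 10389912, was at 6.89, 6.98 and 7.09 in the knockouts and 6.48, 7.04 and 7.22 in the controls, a log2 difference of 0.07.

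Within *Abcc3*, probe set 10389923 stood lowest. It was at 3.70, 4.21 and 3.44 in knockout arrays, against 5.15, 4.84 and 5.91 in control arrays. The groups did not overlap, and the log2 difference was -1.52 (SE 0.32, adjusted p = 0.522 by limma), or 0.35-fold. The probe sets before and after it in the order of IDs differed by -0.28 and -0.36. The signal is dim, and the largest rise in the gene, 0.76 at probe set 10389919, was dim as well.

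*Abcb6* encodes a transporter of mitochondria and lysosomes that is linked to porphyrins, the precursors of haem. It had 7.25, 7.30 and 7.22 in knockout arrays and 7.26, 7.26 and 7.51 in control arrays. Control 3 stood above the other 5 arrays, which lay close together. This gave a log2 difference of -0.09 (SE 0.08, 95% interval of the fold 0.83 to 1.06, adjusted p = 0.621 by limma), against -0.01 without control 3. Its probe sets leaned one way: 14 of 19 were lower, 4 higher and 1 equal, with a median of -0.10. Probe sets of a gene, here and below, were read on the same arrays, so a shared direction is not repeated evidence. All 19 of *Abcb6* lay between -0.33 (probe set 10355756) and 0.26 (probe set 10355751), and 17 of 19 were among the brighter ones. Both extremes rest on single arrays: 10355756 was at 0.00 without control 3 and -0.06 without knockout 3, and 10355751 at 0.03 without control 2. The brightest, 10355748, was at 9.39, 9.46 and 9.60 in the knockouts and 9.55, 9.56 and 9.75 in the controls, a log2 difference of -0.14 (SE 0.10).

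*Abca7* moves phospholipids, takes part in phagocytosis and is a risk gene of human Alzheimer's disease. Its gene mean was 6.85, 6.84 and 6.77 in knockout arrays, against 6.66, 6.60 and 6.87 in control arrays. Controls 1 and 2 lay below all knockout arrays, and control 3 above them. Between groups the log2 difference was 0.11 (SE 0.08, 95% interval of the fold 0.96 to 1.22, adjusted p = 0.538 by limma). It was 0.19 without control 3 and 0.06 without control 2. With the median of the probe sets on each array it was 0.17, and without dim probe sets 0.17. Of the 40 brighter probe sets 28 were higher. Among the summaries, the direction changed with the brightest probe set alone. The brightest probe set, 10364623, was at 9.20, 9.25 and 9.36 in the knockouts, all below the controls at 9.50, 9.39 and 9.50, a log2 difference of -0.19 (SE 0.08, adjusted p = 0.662 by limma).

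The differences of *Abca7* were not spread evenly over the gene. Among its first 23 probe sets in ID order 18 were higher in the knockout, with a mean log2 difference of 0.26. Among the other 23, 11 were higher, with a mean of -0.04. The mean over the first 23 was 7.01, 6.94 and 7.0 in knockout arrays and 6.63, 6.57 and 6.96 in control arrays. Over the other 23 it was 6.69, 6.74 and 6.54 in knockout arrays and 6.69, 6.63 and 6.78 in control arrays. In the first stretch control 3 lay above knockout 2, so the groups overlapped there. The gap between the stretches was 0.30, where the 802 genes with at least 19 probe sets had a median gap of 0.06 and a 90th percentile of 0.16. Among the other members the gap reached 0.15 in size, in *Abcc3*. The split was looked at after the values were seen and was not tested.

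**Figure D2:**
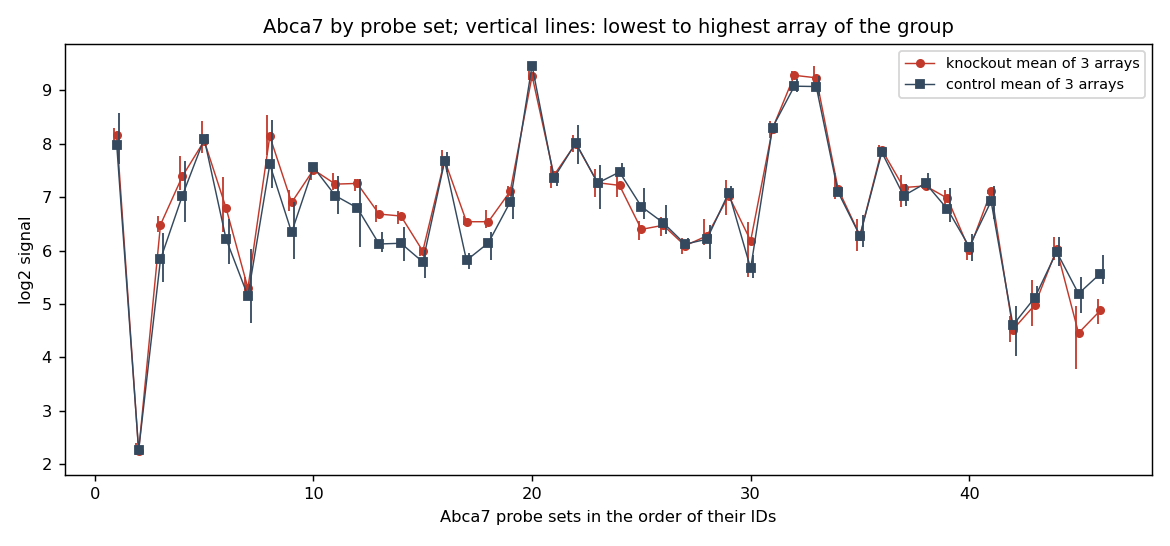
Mean log2 signal of *Abca7* probe sets in ID order, knockout circles and control squares, with vertical lines from the lowest to the highest of the 3 arrays of a group. Knockout means lie above control means at 18 of the first 23 probe sets and at 11 of the other 23, and both groups follow the same profile of bright and dim probe sets.

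The *Abca7* probe sets with the smallest p lay in that first stretch. Probe set 10364620 was at 6.51, 6.64 and 6.47 in the knockouts, against 5.85, 5.65 and 5.95 in the controls. This was a log2 difference of 0.72 (SE 0.11, adjusted p = 0.424 by limma), or 1.65-fold, with no overlap. Probe set 10364616 was at 6.85, 6.66 and 6.54 in the knockouts and 6.04, 5.98 and 6.35 in the controls, a log2 difference of 0.56 (SE 0.14, adjusted p = 0.555 by limma). Its neighbours in ID order differed by 0.46 and 0.51, and those of 10364620 by 0.02 and 0.40. The lowest of the gene was -0.74 at the dim probe set 10364648, next to another at -0.69. Measured against the other probe sets of *Abca7*, 10364620 stood 0.63 (SE 0.09) above them. The adjusted p was 0.557 in limma with a variance for each probe set that was not shared within the gene.

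A run of 5 members lies side by side on chromosome 11 with no other protein-coding gene between them, in the order *Abca8b*, *Abca8a*, *Abca9*, *Abca6* and *Abca5*. They form a subgroup of subfamily A with 193 probe sets here. *Abca5* is a transporter of late endosomes and lysosomes with a role in cholesterol handling. Human *ABCA8*, the counterpart of the mouse pair, is linked to cholesterol efflux and to sphingomyelin in oligodendrocytes. For *Abca6* and *Abca9*, human studies link the genes to lipids in macrophages. Promoter windows of RefSeq, build GRCm38.p6, from 250 bases before to 50 after the annotated start, matched 8 of the 10 members, and *Abca6* and *Abcc3* had no entry. The windows of *Abca5* (chr11:110337667-110337966, minus strand), *Abca8a* (chr11:110095888-110096187, minus strand) and *Abca8b* (chr11:109995796-109996095, minus strand) are shown as those of neighbours whose windows differ in base composition and motifs. Capitals mark GGGCGG, the GC box of Sp1-type factors, and CACGTG, the E-box of helix-loop-helix factors, on either strand.
Abca5: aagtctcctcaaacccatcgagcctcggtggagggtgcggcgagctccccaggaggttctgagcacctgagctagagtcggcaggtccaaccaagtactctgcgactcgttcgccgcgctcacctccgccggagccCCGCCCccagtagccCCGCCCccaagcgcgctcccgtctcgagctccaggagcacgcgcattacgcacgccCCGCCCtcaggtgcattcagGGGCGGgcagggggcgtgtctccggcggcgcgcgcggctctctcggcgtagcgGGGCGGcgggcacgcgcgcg
Abca8a: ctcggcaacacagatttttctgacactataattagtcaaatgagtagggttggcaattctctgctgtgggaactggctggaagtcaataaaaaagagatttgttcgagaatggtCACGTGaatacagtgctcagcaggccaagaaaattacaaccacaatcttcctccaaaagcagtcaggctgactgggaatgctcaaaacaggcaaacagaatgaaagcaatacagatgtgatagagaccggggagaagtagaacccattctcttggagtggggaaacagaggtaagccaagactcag
Abca8b: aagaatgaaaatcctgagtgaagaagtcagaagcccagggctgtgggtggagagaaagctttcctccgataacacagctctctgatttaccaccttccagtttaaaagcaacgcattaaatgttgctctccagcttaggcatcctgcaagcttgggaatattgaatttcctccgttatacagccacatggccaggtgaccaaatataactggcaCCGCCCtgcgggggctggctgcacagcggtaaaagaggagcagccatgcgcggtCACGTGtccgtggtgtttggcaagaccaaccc

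The window of *Abca5* has 72.3% G and C, 40 CpG and 5 GGGCGG matches, and 93.5% of the 32851 windows have less G and C. That of *Abca8a* has 44.3% G and C and 4 CpG, and that of *Abca8b* 51.3% and 10 CpG, where the median window has 52.7% and 7 CpG. Both *Abca8a* and *Abca8b* hold 1 CACGTG, a motif found in 7.15% of all windows. GGGCGG is in 35.7% of all windows, and among the members also in those of *Abca7* (1 match), *Abcb6* (2) and *Abca8b* (1). TGACNNNGC, the core of the antioxidant response element, was searched on both strands too. It is in 12.4% of all windows and, of the 8 members, in that of *Abca8b*, where the match starts at base 12 after the start and overlaps the CACGTG that starts at base 19. A match is a description of the letters and not a binding site.

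*Abca5* had the most even controls of the members. Its gene mean was 8.66, 8.74 and 8.53 in knockout arrays, against 8.61, 8.61 and 8.61 in control arrays. The SD of the controls was 0.00465, and the knockouts lay on both sides of them. The log2 difference was 0.03 (SE 0.06, 95% interval of the fold 0.93 to 1.13, adjusted p = 0.837 by limma), and it was -0.01 without knockout 2. Of its 40 probe sets 39 lay within 0.25 of 0, the lowest at -0.22 (probe set 10392645), and 37 of 40 were among the brighter ones. The brightest, 10392662, was at 10.61, 10.38 and 10.48 in the knockouts and 10.59, 10.54 and 10.55 in the controls. The exception was the dim probe set 10392650, at 5.80, 6.93 and 4.34 in the knockouts and 3.95, 4.10 and 5.42 in the controls. Its log2 difference of 1.2 (SE 0.71, adjusted p = 0.715 by limma) came with groups that overlapped, and its neighbours differed by 0.12 and -0.12.

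*Abca8a* had the largest gene-level difference of the members. Its mean was 6.59, 6.79 and 6.42 in knockout arrays and 6.47, 6.37 and 6.45 in control arrays. Knockouts 1 and 2 lay above all controls, and knockout 3 below controls 1 and 3. Knockout minus control was 0.17 on the log2 scale (SE 0.09, 95% interval of the fold 0.97 to 1.30, adjusted p = 0.436 by limma). It was 0.08 without knockout 2 and 0.26 without knockout 3. The direction was shared along the gene: 30 of 37 probe sets were higher and 7 lower, with a median of 0.15, and 25 of the 30 brighter ones were higher. These probe sets were read on the same arrays and are not independent of each other. The brightest, 10392543, was at 9.06, 8.88 and 8.72 in the knockouts and 8.58, 8.53 and 8.74 in the controls, a log2 difference of 0.27 (SE 0.12). Probe set 10392533 did not overlap, at 6.77, 7.01 and 6.98 in the knockouts and 6.42, 6.53 and 6.44 in the controls, with a log2 difference of 0.46 (SE 0.10, adjusted p = 0.522 by limma). The extremes were 0.87 at the dim probe set 10392527 and -0.43 at 10392558.

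The neighbour *Abca8b*, close to *Abca8a* in sequence as a gene pair, had fewer probe sets higher than lower. It was at 7.0, 7.05 and 7.01 in knockout arrays and 7.04, 6.93 and 7.13 in control arrays, with the knockouts inside the range of the controls. This gave a log2 difference of -0.02 (SE 0.06, 95% interval of the fold 0.90 to 1.09, adjusted p = 0.931 by limma), and it was 0.03 without control 3. Of 37 probe sets 14 were higher and 23 lower, from -0.55 (probe set 10392508) to 0.44 (10392493). The brightest, 10392515, was at 10.68, 10.80 and 10.69 in the knockouts and 10.92, 10.58 and 10.89 in the controls. Whether the pair differ in their response was not tested. No pair of member probe sets held identical values, but paralogs can share probes in part, and how far they do here was not tested.

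*Abca9* was at 6.75, 6.45 and 6.72 in knockout arrays, against 6.66, 6.66 and 6.55 in control arrays. Knockout 2 was the lowest array and the other knockouts the highest. Between groups the log2 difference was 0.02 (SE 0.09, 95% interval of the fold 0.89 to 1.16, adjusted p = 0.940 by limma), 0.12 without knockout 2 and -0.03 without knockout 1. Its probe sets went both ways without overlap. Probe set 10392576 was at 7.08, 7.05 and 6.97 in the knockouts and 6.59, 6.57 and 6.59 in the controls, a log2 difference of 0.45 (SE 0.07, adjusted p = 0.480 by limma). The dim probe set 10392596 was at 4.63, 4.39 and 4.28 in the knockouts and 5.48, 5.41 and 4.76 in the controls, a log2 difference of -0.78 (SE 0.21, adjusted p = 0.560 by limma). Among all 40 probe sets 18 were higher and 22 lower. The highest of them, 0.74 at the dim 10392570, rests on control 3, at 3.44 against 5.54 and 5.27 in the other controls, and was 0.09 without it. The brightest, 10392597, was at 9.53, 9.01 and 9.54 in the knockouts and 9.46, 9.73 and 9.61 in the controls, where the lowest value is again knockout 2.

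*Abca6* was read mostly at dim signals, with 31 of 39 probe sets among the dimmest 1 in 3. It was at 4.75, 4.83 and 4.74 in knockout arrays and 4.71, 4.65 and 4.78 in control arrays. The ranges overlapped, with control 3 above knockouts 1 and 3. The log2 difference was 0.06 (SE 0.06, 95% interval of the fold 0.95 to 1.14, adjusted p = 0.657 by limma), with 21 probe sets higher and 18 lower. Probe set 10392635 was at 5.17, 5.24 and 5.51 in the knockouts and 4.92, 4.0 and 4.22 in the controls, a log2 difference of 0.93 (SE 0.25, adjusted p = 0.557 by limma). Probe set 10392620 had 0.60 (SE 0.14) at signals of 2.26 to 3.21, and 10392633 had the lowest value, -0.69. The brightest, 10392641, showed -0.01.

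**Figure D3:**
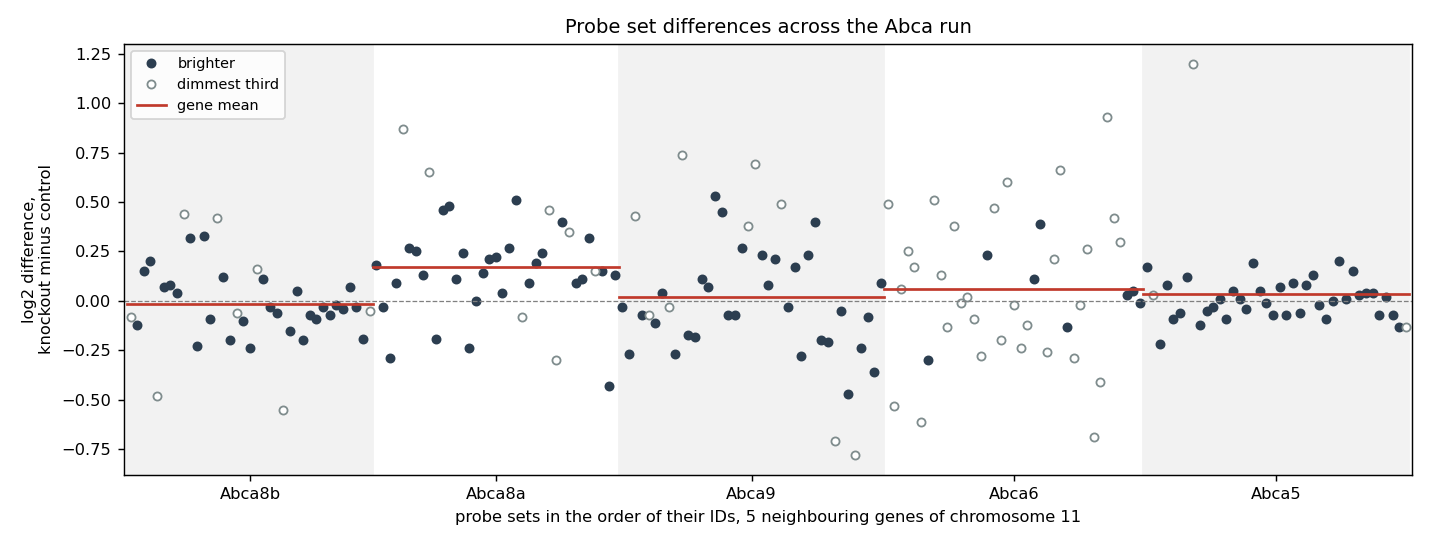
Log2 difference, knockout minus control, of the 193 probe sets of 5 neighbouring genes of chromosome 11 in the order of their IDs. Filled points are brighter probe sets, open points those among the dimmest 1 in 3, and red lines the gene means. Points of *Abca5* lie close to 0 apart from 1 dim probe set at 1.2, those of *Abca8a* lie mostly above 0, and those of *Abca6*, mostly dim, scatter widely.

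*Abca12* and *Abca13* were read mostly at dim signals. *Abca12* carries glucosylceramides into the lamellar granules of skin cells, and *Abca13* encodes a very large transporter. Of their probe sets 49 of 55 and 59 of 64 were among the dimmest 1 in 3. *Abca12* was at 4.14, 4.15 and 4.25 in knockout arrays and 4.28, 4.19 and 4.09 in control arrays, a log2 difference of -0.01 (SE 0.06, 95% interval of the fold 0.90 to 1.10). *Abca13* was at 3.68, 3.65 and 3.84 in knockout arrays and 3.70, 3.70 and 3.79 in control arrays, a log2 difference of -0.005 (SE 0.06, 95% interval of the fold 0.90 to 1.10). Limma's adjusted p-values were 0.963 and 0.981. The groups overlapped in both genes, with knockout 3 the highest array of *Abca13* and control 1 that of *Abca12*. Without the dim probe sets the difference was -0.16 over 6 probe sets of *Abca12* (adjusted p = 0.352 by limma) and -0.22 over 5 of *Abca13* (adjusted p = 0.270 by limma). For *Abca13* the 3 knockout values, 6.73, 7.07 and 6.89, then lay below the controls at 7.11, 7.10 and 7.15. Probe set 10374289, at -0.70, was far the lowest of these 5, and the others lay from -0.18 to -0.07. The median of the 5 was -0.09.

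Single probe sets of these genes varied far more than their means. *Abca12* probe set 10355360 was at 3.88, 4.14 and 3.86 in the knockouts and 3.12, 3.30 and 3.00 in the controls, a log2 difference of 0.82 (SE 0.12, adjusted p = 0.424 by limma) without overlap. *Abca13* probe set 10374282 was at 4.05, 4.21 and 4.34 in the knockouts and 3.55, 3.41 and 3.77 in the controls, a log2 difference of 0.62 (SE 0.13, adjusted p = 0.522 by limma). Both signals are dim. The extremes of *Abca12* were -0.76 (probe set 10355368) and 0.86 (10355400), and those of *Abca13* were -0.84 (10374280) and 1.09 (10374311). The last rests on knockout 3, at 7.34 against 3.53 and 2.31 in the other knockouts and 2.68, 2.68 and 4.55 in the controls, and its difference was -0.38 without that array. The brightest probe sets, 10355352 and 10374300, differed by -0.16 (SE 0.14) and -0.09 (SE 0.10).

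**Figure D4:**
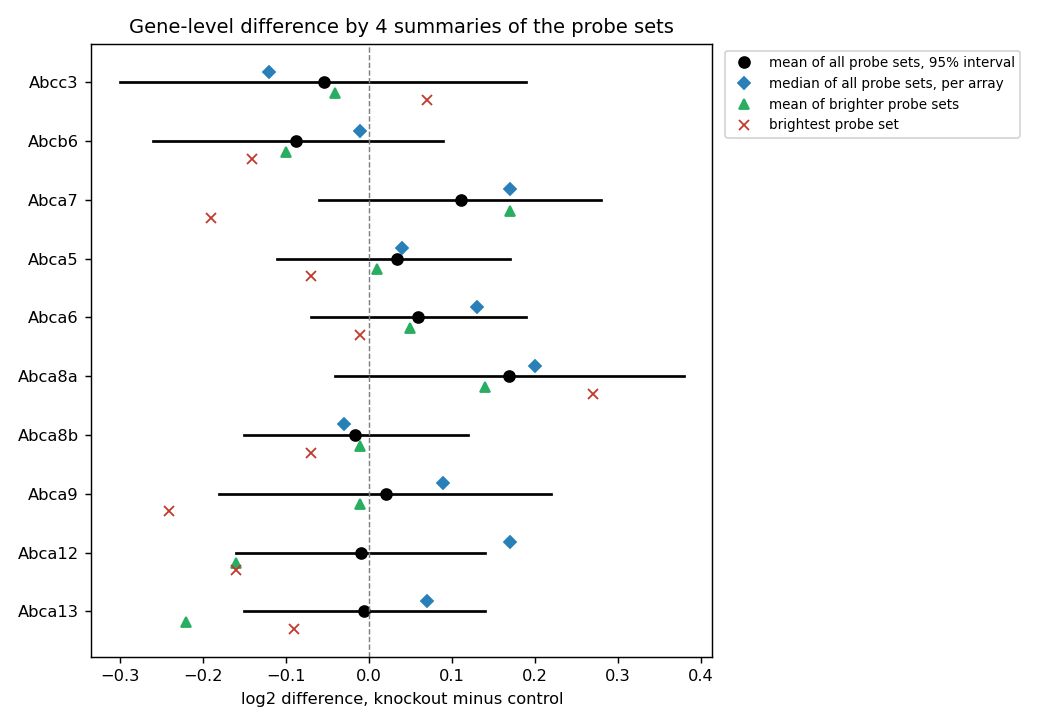
Log2 difference, knockout minus control, for each member by 4 summaries: the mean of all probe sets with its 95% confidence interval (black), the median of the probe sets on each array (diamonds), the mean of the brighter probe sets (triangles) and the brightest probe set (crosses). All 10 intervals cover 0, *Abca8a* is above 0 and *Abcb6* and *Abca8b* are below 0 by all 4 summaries, and the sign differs between summaries for *Abcc3*, *Abca7*, *Abca5*, *Abca6*, *Abca9*, *Abca12* and *Abca13*.

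Over all 410 member probe sets, 0 rose and 0 fell at a limma adjusted p below 0.05, where 0.00509% of all 58919 tested rose and 0% fell. The smallest adjusted p was 0.424. At an unadjusted p below 0.05 there were 33, or 8.05%, of which 23 were higher and 10 lower, against 7.69% of all probe sets. The split of all probe sets by direction at this p was not counted. Knockout arrays lay wholly above control arrays in 27 member probe sets, or 6.59%, and wholly below in 17, or 4.15%, where all probe sets gave 7.94% above and 5.52% below. By sign, 207 were higher, 202 lower and 1 equal, and the median of 0.003 stands beside 0.01 over all probe sets. By the unadjusted p and by overlap the members were near the background. *Abca8a* held 5 of the 23 higher ones and none of the 10 lower ones, and *Abca9* and *Abca12* held 3 of each direction.

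**Figure D5:**
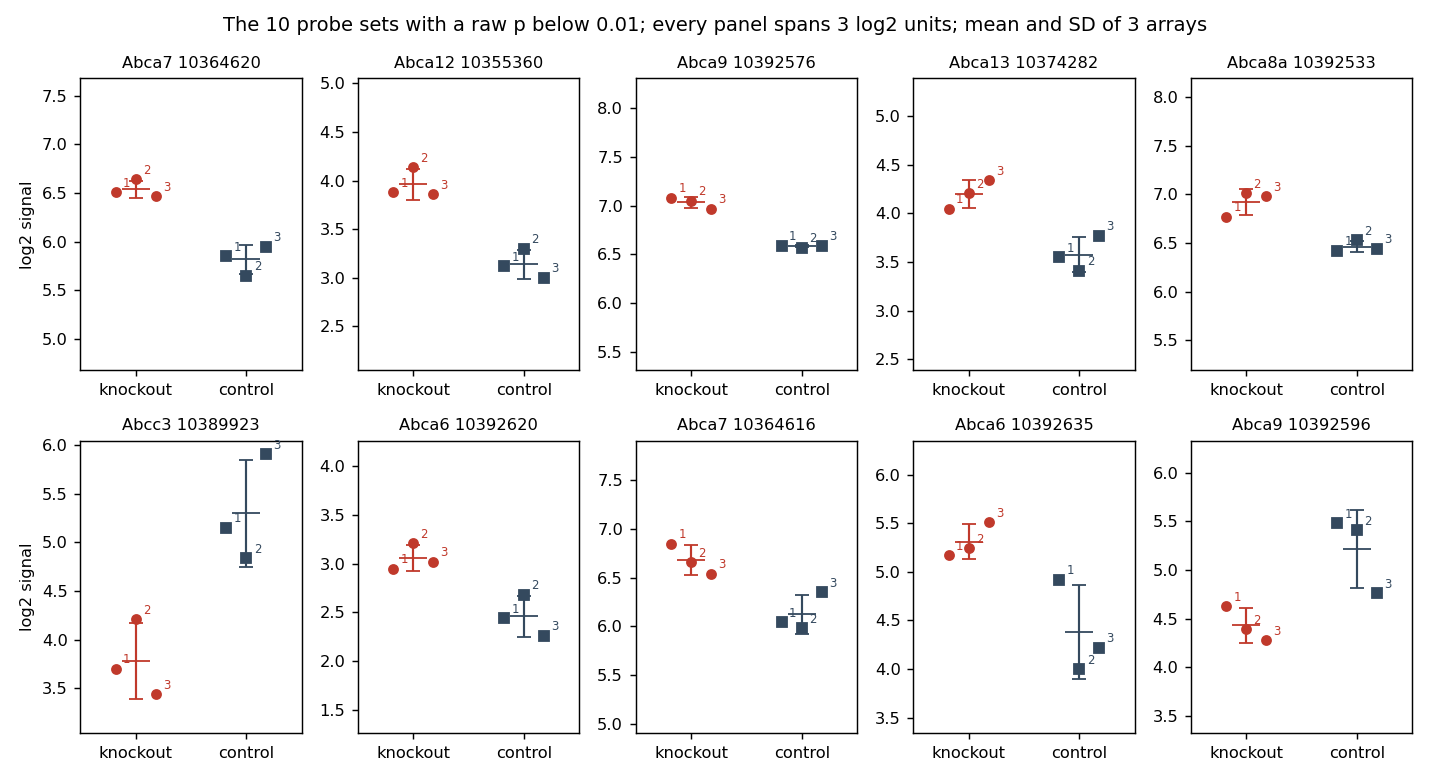
Log2 signal on every array for the 10 member probe sets with an unadjusted p below 0.01, knockout left and control right, with array numbers, mean and SD of 3 arrays. The groups do not overlap in any panel, 8 are higher and 2 lower in the knockout, and each panel was chosen for its small p. How many of all probe sets pass this p, and in which direction, was not counted. The 10 thus say nothing of an excess or a lean among the members.

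Differences of at least 0.5 in size were more frequent, in 52 member probe sets or 12.7%, against 4.29% of all probe sets. Of the 52, 39 were among the dimmest 1 in 3 and 19 had an unadjusted p below 0.05. In all, 192 of 410 member probe sets were among the dimmest 1 in 3. The median residual SD between arrays was 0.434 for dim and 0.218 for brighter member probe sets, and 0.262 and 0.136 over all probe sets of the same kinds. Member probe sets thus scattered more than the rest at either level of signal. By gene the SD of the differences was 0.14 in *Abcb6*, 0.21 in *Abca5* and *Abca8b*, and up to 0.40 in *Abcc3*.

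Each probe set was also set against the other probe sets of its gene. limma's diffSplice, which assumes a variance shared by all probe sets of a gene, called 2 of 410 member probe sets and 0.475% of 53097. They were 10392650 of *Abca5* (adjusted p = 2.12e-05 by limma) and 10389923 of *Abcc3* (adjusted p = 0.0256 by limma), both dim. An alternative, chosen after seeing the data, used a variance for each probe set, which limma draws toward a value common to all probe sets. With it limma called 0 member probe sets and 0% of all, with 2820 of all at an unadjusted p below 0.05. The adjusted p was then 0.957 for 10392650 and 0.874 for 10389923.

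Other genes of the transport pathway gave no call either. Measured means present in the table used here, where the genes found from all lists lie on chromosomes 1, 10 to 13 and 19, and the others were not analysed here. Of 45 other ABC genes listed, 2 were measured, *Abcb5* at a log2 difference of 0.09 (SE 0.07) and *Abcd4*, of lysosomal vitamin B12 export, at -0.13 (SE 0.08). Among 6 of 24 regulators of ABC genes, 3 were higher and 3 lower, with a median of 0.02 and 0 past the threshold by limma or at an unadjusted p below 0.05. *Rxrg*, a retinoid X receptor, had 0.09 (SE 0.06), the bile acid receptor gene *Nr1h4* -0.17 (SE 0.08) and the oestrogen receptor gene *Esr1* -0.22 (SE 0.13). Of 36 organic anion and cation transporters outside the ABC family 15 were measured, 7 higher and 8 lower with a median of -0.02. Limma called 0, and against 14.1% of all genes 1 had an unadjusted p below 0.05. That was *Slc47a1*, an exporter of organic cations, at 5.56, 5.54 and 6.02 in knockout arrays and 6.09, 6.0 and 6.27 in control arrays (log2 difference -0.41, SE 0.13, adjusted p = 0.258 by limma). *Slc22a23* differed by 0.11 (SE 0.05) and the phosphate and anion transporter gene *Slc17a1* by 0.14 (SE 0.07), both without overlap. The groups did not overlap in *Slc22a5* at 0.07 and *Slc22a4* at -0.10 either, as in 20.2% of all genes.

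Genes that make or break down the conjugates carried by *Abcc1* were 5 higher and 7 lower among 12 of 34 listed, with a median of -0.04 and 0 called by limma. *Mgst3*, a microsomal glutathione transferase, was the 1 with an unadjusted p below 0.05, at 8.02, 8.03 and 8.03 in knockout arrays, all below the controls at 8.13, 8.12 and 8.16 (log2 difference -0.11, SE 0.04, adjusted p = 0.312 by limma). The glutathione transferase genes *Gstt1* and *Gstp2* were at -0.14 (SE 0.07) and -0.18 (SE 0.14). For haem and porphyrins, the pathway of *Abcb6*, 3 of 18 genes were measured, with 0 called and a median of 0.01. *Ppox*, protoporphyrinogen oxidase, was at 7.06, 7.14 and 7.07 in knockout arrays, above all controls at 6.81, 6.91 and 6.89 (log2 difference 0.22, SE 0.05, adjusted p = 0.215 by limma). The haem exporter gene *Flvcr1* and its relative *Flvcr2* were both at 0.01 (SE 0.05 and 0.11).

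Markers of brain cell types were read beside the members. In total tissue they cannot tell fewer cells of a type from less RNA per cell. Neuronal genes were bright, with *Syt1* at 11.66 ± 0.03 in knockouts and 11.61 ± 0.04 in controls. *Atp1b1* was at 11.38 ± 0.02 and 11.33 ± 0.02 (SD, n = 3 each, in both genes). Of 15 neuronal markers 4 were measured, and the others, *Dlg4* and *Map2*, had log2 differences of 0.03 and -0.03. Among astrocyte markers no gene passed the test, and the list mean did not overlap between groups. All 6 measured of 14 were lower in the knockout, with a median of -0.22, and their mean was 9.48, 9.35 and 9.41 in knockout arrays, below the controls at 9.66, 9.52 and 9.73. *Gfap* was at -0.48 (SE 0.25), *Kcnj10* at -0.26 (SE 0.06), *Kcnj16* at -0.22 (SE 0.10) and *S100b* at -0.21 (SE 0.07). *Gja1* had -0.15 (SE 0.05) and *Aldoc* -0.02 (SE 0.05). Limma called 0, with 3 (*Gja1*, *Kcnj10* and *S100b*) at an unadjusted p below 0.05, against 14.1% of all genes. The same 3 did not overlap between groups, against 20.2% of all genes. No such share was counted for list means. The 2 measured of 15 microglial markers averaged 6.68, 5.87 and 6.51 in knockout arrays and 6.67, 6.57 and 6.69 in control arrays, with *Cd68* at -0.41 (SE 0.20) and *Ptprc* at -0.17 (SE 0.17). Knockout 2 was the lowest array there, as it was for *Abcc3*, *Abca9* and *Abca13*, while it was the highest for *Abca5*, *Abca6* and *Abca8a*. The part of cell composition in the member values was not tested.

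The means of the other marker lists overlapped between groups. The mean of 3 of 16 oligodendrocyte markers was 8.70 to 8.80 in knockouts and 8.71 to 8.81 in controls. Among them *Cnp* and *Cntn2* were both at -0.05 and *Aspa* went the other way, at 0.16. For 2 of 15 endothelial markers the mean was 8.33 to 8.40 and 8.27 to 8.38, with *Bsg* at -0.01 and *Pecam1* at 0.06. For 4 of 16 choroid plexus and ependymal markers it was 7.30 to 7.43 and 7.29 to 7.36, with *Kcnj13* at 0.21 and *Ace* at -0.03. For 7 of 15 pericyte and fibroblast markers it was 6.97 to 7.07 and 6.99 to 7.28, and 6 of the 7 were lower. *Col1a1* was at -0.30, *Dcn* at -0.25 and *Vtn* at 0.00. *Aspa* and *Col1a1* did not overlap between groups, as in 20.2% of all genes. Limma called 0 genes of these lists, with 2 pericyte and fibroblast and 1 choroid plexus marker at an unadjusted p below 0.05. The share of all genes at this p was 14.1%. Array medians of all tested probe sets were 7.05 to 7.09 in knockouts and 7.04 to 7.06 in controls, and pairs of arrays correlated between 0.984 and 0.990.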

How the data were processed

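Total RNA of mouse brain was hybridised to Affymetrix whole-transcript arrays read by probe set, 3 of knockout and 3 of control mice. The deposited table holds log2 signals with 2 decimals, from 1.69 to 14.41, a scale read from the values. Per the submitters' processing notes MAS5 was used, and the scaling between arrays is not stated in the labels. Of 65535 probe sets, 6616 with IDs below the first named one were taken as control features and left out. Symbols came from the platform's annotation, updated through RefSeq (GRCm38.p6), and the array's build is not given. Coordinates of promoter windows and the order of genes are those of RefSeq, and no probe set was placed by coordinates.

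Knockout minus control was fitted with limma 3.58.1 in R 4.3.3 (lmFit, eBayes) on the means of all probe sets of each of 5017 genes and on 58919 probe sets, two-sided, with Benjamini-Hochberg adjustment over each table. Fits were tested on simulated data. On those data diffSplice called probe sets where nothing differed, and a fit with a variance for each probe set was added. The rate of such calls is not given here, and simulated scatter need not match that of these arrays. The simulation thus does not decide whether the member calls of diffSplice are false. The members and the lists were chosen with earlier results of these data known. Named are all members, with their brightest, highest and lowest probe sets and those with an unadjusted p below 0.01. From the lists, up to 3 genes with the smallest p of each pathway and the 2 brightest of each marker list are named. *Aspa*, *Col1a1*, *Dlg4*, *Gfap*, *Kcnj10*, *Kcnj16*, *Map2*, *S100b*, *Slc22a4* and *Slc22a5* stand beside these, to complete a marker list or the genes without overlap. Alternatives covered normalization, variance model, array weights, dim probe sets, the replicate number, each array left out, the threshold and the gene summary. With arrays, their number limits the precision.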

Additional observations from a re-analysis of the deposited data

How the results depend on the processing

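No alternative brought a member gene mean or a member probe set past the threshold: the count stayed at 0 in every fit of gene means and probe sets. The fit without dim probe sets held 218 of the 410. Member gene means changed sign in 13 of 60 values with an array left out and in 10 of 90 under other settings, none of them called. With the brightest probe set the log2 difference was -0.07 for *Abca5*, -0.01 for *Abca6*, -0.19 for *Abca7*, -0.24 for *Abca9* and 0.07 for *Abcc3*. With the median of the probe sets it was 0.17 for *Abca12* and 0.07 for *Abca13*, with array weights 0.01 for *Abca13* and 0.03 for *Abcc3*, and without dim probe sets -0.01 for *Abca9*. Leaving out each array gave -0.01 to 0.09 for *Abca5*, -0.07 to 0.03 for *Abca8b*, -0.03 to 0.12 for *Abca9*, -0.06 to 0.04 for *Abca12*, -0.06 to 0.03 for *Abca13* and -0.13 to 0.05 for *Abcc3*. For probe sets it gave -0.38 to 2.13 for 10374311, -0.14 to 0.23 for 10389912, -0.14 to 0.15 for 10392641 and -0.46 to 0.10 for 10392645. Exact p-values reached 0.1, the smallest possible, for 1 member each with median centring (*Abcb6*), without dim probe sets (*Abca13*), with gene medians (*Abca9*) and with the brightest probe set (*Abca7*). Over all probe sets the count of 3 was 21 with trend and robust moderation and 19 without dim probe sets. It was 7 with array weights, 7 with median centring and 7 at an adjusted p threshold of 0.1. It was 6 after quantile normalization and 0 to 4 without 1 array. The diffSplice count of 252 was 139 without dim probe sets, 0 with a variance per probe set and 190 to 354 without 1 array. Its 2 member calls became 0, 0 and 0 to 3 in the same settings, and 0 without control 1.

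Same-numbered arrays correlated at 0.02, -0.08 and -0.06 in their deviations, and of the 6 arrays control 1 alone correlated best with its own number, so the numbers were not taken as pairs. With the replicate number as a block the count over all probe sets was 0, and diffSplice called 1 member probe set. Medians of lists moved as follows: other ABC genes -0.10 without dim probe sets and 0.07 by brightest probe sets, regulators -0.08 by gene medians, and glutathione genes -0.10 by brightest probe sets and -0.06 to 0.00 without 1 array. Organic ion transporters had 0.01 with array weights, 0.04 without dim probe sets, 0.04 by gene medians, -0.11 by brightest probe sets and -0.02 to 0.02 without 1 array. Choroid plexus had 0.04 and neuronal markers 0.01 by gene medians. Without 1 array microglial markers ranged from -0.45 to -0.05, other ABC genes from -0.05 to 0.02, choroid plexus from -0.05 to 0.02, endothelial markers from -0.01 to 0.05, haem genes from -0.02 to 0.10 and pericyte and fibroblast markers from -0.27 to -0.07. Dim signal limits *Abca6*, *Abca12*, *Abca13* and much of *Abcc3*. The causes were not tested.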
